A study of Mus musculus with 6 samples.

Results

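The 10 MS4A genes described here are the members of one gene cluster that were matched by symbol: Ms4a1, Ms4a2, Ms4a3, Ms4a4b, Ms4a4c, Ms4a4d, Ms4a6b, Ms4a6c, Ms4a6d and Ms4a7. Each had 1 probe set whose annotation named exactly 1 symbol, so the 10 genes rest on 10 of 35556 probe sets and are 10 of 19938 genes measured. The family was chosen by the log2 difference of Ms4a3 between shHLX and shControl, the largest fall of all genes on these arrays. That comparison therefore picked it, and the values of the 10 genes are given as a description, with no p-value.

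URE is a mouse myeloid leukaemia line, known from mice that lack an upstream regulatory element of the gene of the transcription factor PU.1, a deletion that both groups would share; the labels give only the name of the line. The shControl cells carried a lentiviral hairpin against luciferase, and the shHLX cells carried one directed at the mRNA of the homeobox transcription factor gene Hlx. The vector also encodes a green fluorescent protein, by which the cells were sorted. Each group had 3 Affymetrix arrays, made from 10 ng of amplified RNA each, and a value is an RMA log2 signal of a probe set. The labels name 1 line and no second hairpin against Hlx. They do not say whether the 3 arrays of a group came from separate infections, so standard errors measure the spread between these arrays, which may be technical.

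MS4A proteins cross the membrane 4 times and sit in receptor complexes of blood cells, where many of them alter signalling or receptor traffic. Ms4a1 encodes CD20 of B cells and Ms4a2 the beta chain of the high-affinity IgE receptor of mast cells and basophils. Ms4a3, also called HTm4, marks granulocyte and monocyte progenitors, and its human protein is known to bind a phosphatase of the cell cycle and to act on the traffic of the beta common cytokine receptor. Others of the family are best known from T cells (Ms4a4b, Ms4a6b) or from monocytes and macrophages (Ms4a6c, Ms4a6d, Ms4a7).

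The medians of the 6 arrays lay between 7.02 and 7.10 on the log2 scale. On the second principal component, which held 18.1% of the variance, shControl 1 (9.53) and shHLX 3 (9.10) stood apart from the other 4 arrays (-9.04 to -0.64), and the labels name no batch. The members' differences are therefore also given without those 2 arrays where they move. Hlx itself was at 10.21, 10.12 and 10.20 with the control hairpin and at 10.08, 10.06 and 10.17 on the arrays labelled shHLX. The groups overlapped, and an exact two-sided permutation test gave p = 0.2 (the smallest p this design allows is 0.1). The arrays thus show no clear loss of the targeted mRNA, and every direction here rests on the labels.

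Of the 10 genes, only Ms4a3 differed by more than 0.4 on the log2 scale. The other 9 lay between -0.25 (Ms4a2) and 0.37 (Ms4a6c). Ms4a3 and Ms4a2 were lower on all 3 arrays labelled shHLX than on any control array, Ms4a6c and Ms4a6d were higher, and the groups of the other 6 overlapped. Over all genes, 26.2% had groups that did not overlap (14.7% higher and 11.4% lower on the arrays labelled shHLX). In limma over all 19938 genes, 1 of the 10 (Ms4a3) passed an adjusted p of 0.05, a threshold that 6.18% of all genes passed (3.75% upwards and 2.43% downwards). Nothing is read from these counts, since the same contrast chose the family. The count was 2, with Ms4a6c added, after a second quantile normalization, after centring of the arrays, with an intensity trend, with the replicate number as a block, and without shControl 3. Without shHLX 2 it was also 2, with Ms4a2 added. The median difference was -0.04 for the 10 genes and -0.01 for all genes.

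**Figure D1:**
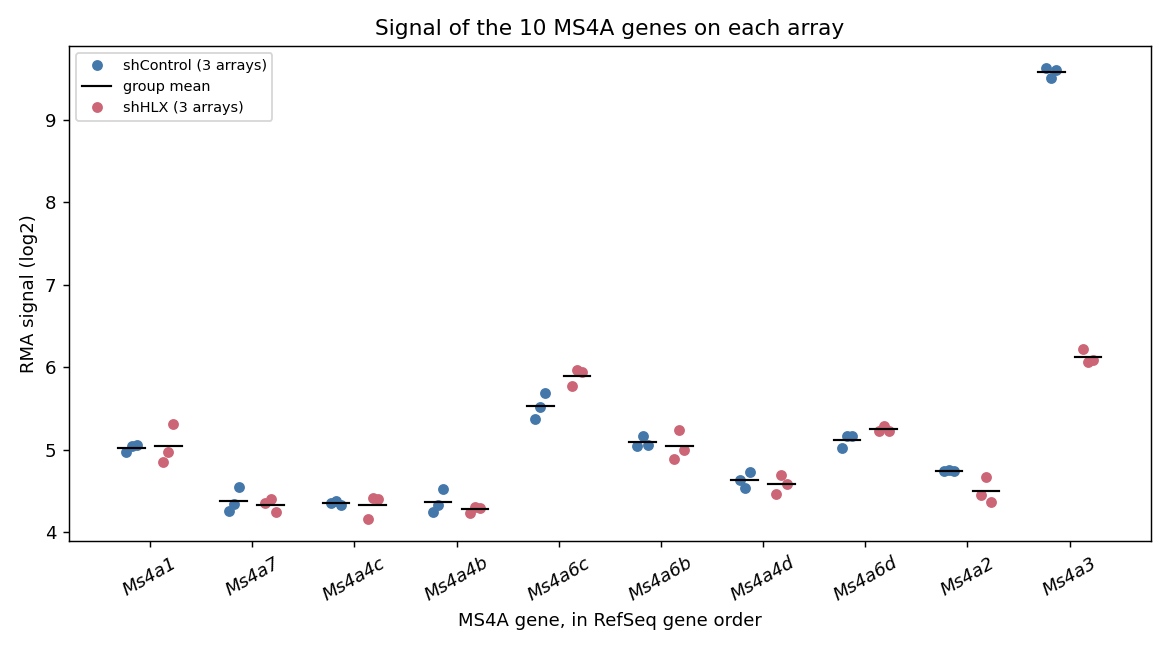
RMA log2 signal (vertical axis) of the 10 MS4A genes (horizontal axis, in RefSeq gene order) on the 3 shControl and 3 shHLX arrays; each point is 1 array and each bar a group mean. Ms4a3 drops from a mean of 9.57 to 6.12, while the groups of the other 9 genes lie within 0.37 of each other; heights of different genes come from different probes and are not comparable.

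Only Ms4a3 had a mean signal over the 6 arrays above the 25th percentile of all genes (6.13), and it did so through its shControl arrays. The other 9 were also under 6.66, the 95th percentile of 1027 olfactory receptor genes, a family that is mostly silent outside the nose. No detection values were used here, so whether those 9 transcripts were above background is unknown. Their differences may understate changes in RNA. In RNA from a bulk of cells, fewer cells of a type and less RNA per cell cannot be told apart.

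Ms4a3 (probe set 10466224, Entrez gene 170813) gave 9.62, 9.50 and 9.60 on the shControl arrays. On the arrays labelled shHLX it gave 6.22, 6.06 and 6.08. All control values were high and all shHLX values low, with a gap of 3.28 between the lowest control array and the highest shHLX array. The means were 9.57 ± 0.066 (SD, n = 3) and 6.12 ± 0.086 (SD, n = 3). This is a log2 difference of -3.45 (SE 0.06), or a 10.9-fold lower signal (95% confidence interval 9.94 to 12). It was -3.41 without shControl 1 and shHLX 3, and lay between -3.50 and -3.41 under all 19 alternatives. Many of these cannot change a difference of means: the gene filters, the variance settings other than array weights, the choice among probe sets and the replicate block. The shHLX mean of 6.12 was itself just under the 25th percentile of gene means. The fold may therefore be limited by the floor of the signal.

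The promoter of Ms4a3 is shown because this gene carries the one large change of the family. It is the RefSeq window of 250 bases before to 50 bases after the start site, on the minus strand at chr19:11640802-11641101 (GRCm38.p6). Capitals mark matches to the motifs searched.
Ms4a3: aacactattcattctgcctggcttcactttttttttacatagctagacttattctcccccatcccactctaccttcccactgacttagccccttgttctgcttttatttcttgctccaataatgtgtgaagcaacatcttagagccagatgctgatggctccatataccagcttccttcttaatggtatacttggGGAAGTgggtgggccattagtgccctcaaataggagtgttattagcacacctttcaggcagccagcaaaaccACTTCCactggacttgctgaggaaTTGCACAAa

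A total of 5 motifs were searched on both strands as plain letters: GGAAGT (ETS factors), TTNNGCAA (C/EBP factors), TGTGGT (RUNX factors), TAATTA (homeodomain factors) and GATAAG (factors of the GATA family). In Ms4a3, GGAAGT began at position -55 on the sense strand and at position 18 on the antisense strand, counted from the start site as 1. TTNNGCAA began at position 42 on the antisense strand. GGAAGT was in 23.8% of all 32851 promoter windows of the same length, and TTNNGCAA in 10.8%. The other 3 motifs were not found in these letters of Ms4a3. Of the 10 genes, 8 had a window in the table (9 windows in all), and 7 of the 9 windows held GGAAGT. The windows of close copies, such as Ms4a6b and Ms4a6c below, share sequence, so the 9 are not independent. Whether they hold GGAAGT more often than other windows was not tested.

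Ms4a3 is the last of the 10 in gene order on chromosome 19, next to Ms4a2. In the RefSeq gene table (GRCm38.p6, used only for order) the run reads Ms4a1, Ms4a7, Ms4a4c, Ms4a4b, Ms4a6c, Ms4a6b, Ms4a4d, Ms4a6d, Ms4a2 and Ms4a3. Between them and among the 5 nearest protein coding genes on each side lie 14 genes that are no members, of which 12 were measured. None of the 12 passed limma (0 had an unadjusted p under 0.05, and 0 passed without variance moderation), against 6.18% of all genes, and their differences ran from -0.06 to 0.09. Their signal limits this count, as 10 of the 12 had a mean under the olfactory mark of 6.66. Next beyond Ms4a3 came Oosp2 (-0.06, SE 0.08), Oosp1 (-0.05, SE 0.07) and Oosp3 (-0.03, SE 0.07), which are known from oocytes, and then Cblif (0.04, SE 0.07), the gene of intrinsic factor. The last of these 5 was Mrpl16, a gene of the mitochondrial ribosome and the only one above the mark, which differed by -0.02 (SE 0.05) at a shControl mean of 9.36.

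**Figure D2:**
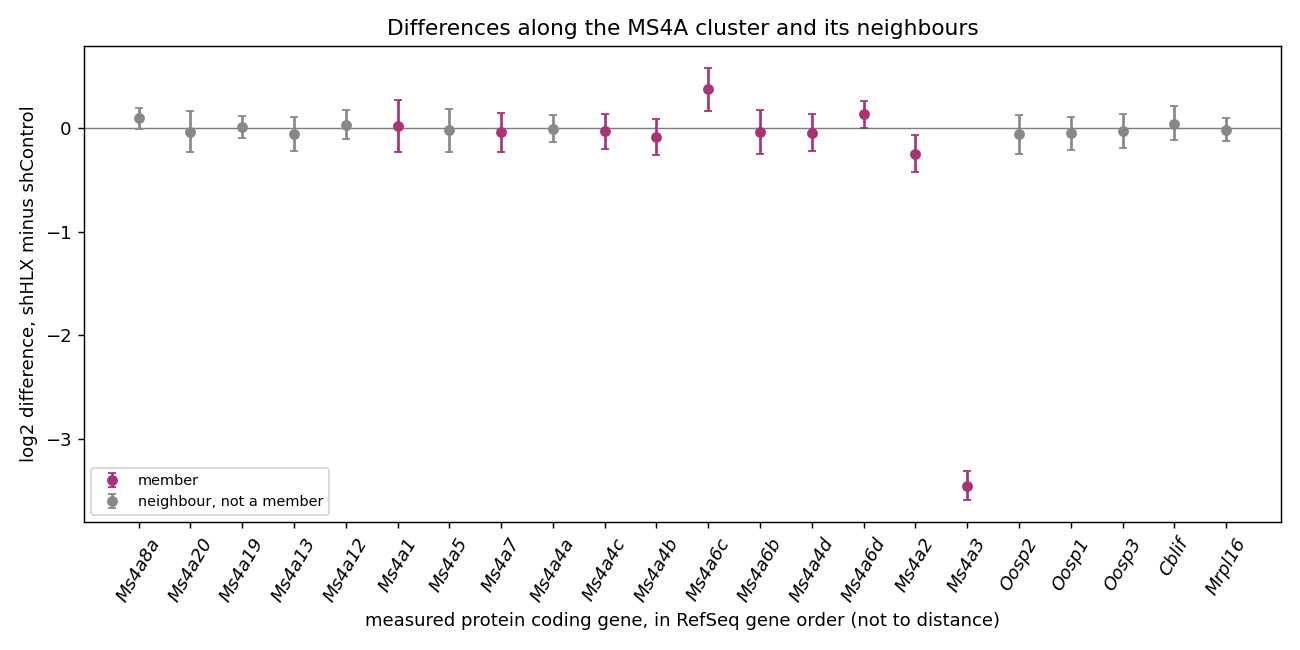
Log2 difference, shHLX minus shControl (vertical axis), of the 22 measured protein coding genes of the MS4A cluster and its flanks, in RefSeq gene order (horizontal axis); points are limma estimates from 3 against 3 arrays and bars 95% confidence intervals. Ms4a3 stands at -3.45; the genes that are no members lie between -0.06 and 0.09.

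Ms4a2, the direct neighbour, gave 4.74, 4.75 and 4.74 on the shControl arrays. It gave 4.45, 4.67 and 4.36 on the arrays labelled shHLX. All shHLX values were lower, but they were spread more widely than the controls. The difference was -0.25 (95% confidence interval -0.43 to -0.07), and -0.18 without shControl 1 and shHLX 3. Its window, at chr19:11623670-11623969 on the minus strand (GRCm38.p6), is shown beside that of Ms4a3 for its antisense match to GATAAG at position -38, a motif that 7.44% of all windows held.
Ms4a2: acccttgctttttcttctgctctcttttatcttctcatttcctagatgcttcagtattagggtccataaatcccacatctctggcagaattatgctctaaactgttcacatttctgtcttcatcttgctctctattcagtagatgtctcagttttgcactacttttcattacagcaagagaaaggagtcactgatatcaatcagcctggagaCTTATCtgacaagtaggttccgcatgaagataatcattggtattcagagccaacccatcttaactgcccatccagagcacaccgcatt

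The partners of Ms4a2 in the IgE receptor did not pass the test, and both had a mean signal under the olfactory mark (4.99 for Fcer1a and 6.55 for Fcer1g), which 11 of the 13 genes of their list exceeded. Fcer1a, the chain that binds IgE, was at 5.01 ± 0.042 (SD, n = 3) and 4.96 ± 0.045 (SD, n = 3). Fcer1g, the shared gamma chain, differed by 0.05 (SE 0.05). Of 13 measured genes of IgE receptor signalling, Fyn, a Src family kinase, rose 1.69-fold (95% confidence interval 1.52 to 1.88, limma adjusted p = 4.47e-04). Lat, an adaptor, fell by 0.45 on the log2 scale (limma adjusted p = 0.0123), and this call was lost without shControl 3 or shHLX 1 (adjusted p up to 0.0633). The median of that list was 0.07, and 2 of its 13 genes passed, against 6.18% of all genes. Of 13 mast cell and basophil markers, Kit fell by 0.73 (limma adjusted p = 6.37e-05) and Mitf rose 1.21-fold (limma adjusted p = 0.0126). Those 2 were the only ones of this list past the threshold, which 6.18% of all genes passed. Leaving out shControl 1, shControl 2 or shHLX 1 ended the call of Mitf, with 0.0574 as the highest adjusted p, and it was 0.0895 without shControl 1 and shHLX 3 together. Kit is also a receptor of progenitors. The mast cell protease gene Cpa3 differed by -0.06, at a mean signal under the olfactory mark. Mcpt8 of the same list, at a mean signal of 9.62, differed by -0.08 (SE 0.06). Gata2, at a mean signal of 7.06, was lower on all 3 arrays labelled shHLX. It differed by -0.33 (SE 0.09) and did not pass (limma adjusted p = 0.0824). Over the alternatives, 1 to 2 markers of this list fell and 0 to 1 rose. The mean level of these 13 markers was 7.01 to 7.10 on the shControl arrays and 6.93 to 6.99 on the shHLX arrays, and 6 of the 13 exceeded the olfactory mark of 6.66. Their part in the difference of Ms4a2 was not tested.

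Ms4a1, which encodes CD20, gave 4.97, 5.04 and 5.06 with the control hairpin. It gave 4.85, 4.97 and 5.31 on the arrays labelled shHLX. The groups overlapped, and shHLX 3 held the highest and shHLX 1 the lowest of the 6 values. The difference was 0.02 (95% confidence interval -0.23 to 0.27), and -0.14 without shControl 1 and shHLX 3. Of 16 measured B cell markers and partners of CD20, Igll1, a part of the surrogate light chain, rose 4.64-fold (limma adjusted p = 2.66e-07), and Vpreb3 rose 1.34-fold (limma adjusted p = 0.0121). Vpreb3 was lost without shControl 2 or shHLX 1 (adjusted p up to 0.0618), and without shControl 1 and shHLX 3 together (adjusted p = 0.0729). Vpreb1, the partner of Igll1 in the surrogate light chain, was lower on all 3 arrays labelled shHLX, by -0.20 (SE 0.07), and did not pass (limma adjusted p = 0.139). The B cell receptor gene Cd79a (-0.09, SE 0.11) and the factor gene Pax5 (-0.12, SE 0.07) did not pass. Cd79a had a mean signal of 5.39, under the olfactory mark, which 9 of the 16 genes exceeded. The median of that list was -0.01, and 2 of its 16 genes passed, against 6.18% of all genes.

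Ms4a4b, known from T cells, gave 4.24, 4.33 and 4.52 against 4.23, 4.30 and 4.29 on the arrays labelled shHLX. The groups overlapped, and shControl 3 held the highest value. The difference was -0.09 (95% confidence interval -0.26 to 0.08), and -0.16 without shControl 1 and shHLX 3. Ms4a6b, also known from T cells, gave 5.04, 5.17 and 5.05 against 4.89, 5.24 and 5.0. Its groups overlapped as well, at a difference of -0.04 (95% confidence interval -0.25 to 0.17). None of 15 measured T and NK cell markers passed limma, against 6.18% of all genes, and at that share 0 of 15 says little. Of these markers, 0 had an unadjusted p under 0.05, and 0 passed without variance moderation. Their differences had a median of -0.09, and 5 of the 15 exceeded the olfactory mark.

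Ms4a6c, a gene of monocytes and macrophages, gave 5.37, 5.51 and 5.69 on the shControl arrays. It gave 5.77, 5.96 and 5.94 on the arrays labelled shHLX. All shHLX values were higher, though shHLX 1 lay only slightly above shControl 3. The means were 5.52 ± 0.16 (SD, n = 3) and 5.89 ± 0.11 (SD, n = 3), a 1.29-fold higher signal (95% confidence interval 1.12 to 1.49). The log2 difference of 0.37 became 0.27 without shControl 1 and shHLX 3, and lay between 0.26 and 0.45 under all 16 alternatives that kept the gene. The variance settings other than array weights, and the probe set and block settings, cannot change it. Array weights gave the value of 0.26.

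Ms4a6d gave 5.02, 5.16 and 5.17 against 5.23, 5.29 and 5.22 on the arrays labelled shHLX. The shHLX values were higher by a narrow gap, and the difference was 0.13 (SE 0.06), or 0.09 without shControl 1 and shHLX 3. Ms4a7, best known from macrophages, gave 4.25, 4.34 and 4.54 against 4.35, 4.40 and 4.24, and its groups overlapped (difference -0.04, 95% confidence interval -0.23 to 0.14, and -0.06 without shControl 1 and shHLX 3). The sign of Ms4a7 changed in 2 of 16 alternatives, some of which cannot change a difference of means. Ms4a4c and Ms4a4d, on which less is known, had overlapping groups too. Ms4a4c gave 4.35, 4.38 and 4.33 against 4.16, 4.41 and 4.40 (difference -0.03, SE 0.07, and -0.07 without shControl 1 and shHLX 3). Ms4a4d gave 4.63, 4.53 and 4.73 against 4.46, 4.69 and 4.58 (difference -0.05, SE 0.08). For both, shHLX 1 was the lowest of the 6 arrays.

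Of 21 measured monocyte and macrophage markers, 3 rose and 0 fell, with a list median of 0.01. Over all genes, 3.75% rose and 2.43% fell. Cd33, a sialic acid receptor, rose 4.39-fold (95% confidence interval 3.63 to 5.32, limma adjusted p = 4.64e-05). Lyz2, which encodes lysozyme, rose 1.31-fold (limma adjusted p = 0.00135), and Lgals3, which encodes galectin-3, rose 1.46-fold (limma adjusted p = 0.00242). The macrophage genes Adgre1 (0.07, SE 0.06), Csf1r (-0.12, SE 0.06) and Mertk (0.05, SE 0.06) did not pass. Their mean signals of 5.31, 6.30 and 6.02 lay under the olfactory mark, so they say little. Brighter markers that did not pass include F13a1 (-0.01, SE 0.04, mean signal 13.52) and Cd68 (0, SE 0.05, mean signal 9.16). Cd14 (0.10, SE 0.08, mean signal 8.49) did not pass either. The mean level of the 21 markers was 7.58 to 7.63 on the shControl arrays and 7.71 to 7.76 on the arrays labelled shHLX, and 11 of the 21 exceeded the olfactory mark. Their part in the higher Ms4a6c signal was not tested.

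Ms4a6b and Ms4a6c are close copies, and their promoters are shown because the shHLX values of Ms4a6c were all higher than its controls while the groups of Ms4a6b overlapped; the difference between the copies was not tested. Global alignment placed identical bases at 64.0% of the window of 300 bases, against a median of 53.3% over 28 pairs of members. Of 225 aligned bases 192 were identical, but with 150 gap columns these were 51.2% of the alignment. Ms4a4b and Ms4a4c had the highest share, at 76.7%. The Ms4a6b window lies at chr19:11518309-11518608 and the Ms4a6c window at chr19:11469118-11469417, both on the plus strand (GRCm38.p6), and capitals mark GGAAGT on either strand.
Ms4a6b: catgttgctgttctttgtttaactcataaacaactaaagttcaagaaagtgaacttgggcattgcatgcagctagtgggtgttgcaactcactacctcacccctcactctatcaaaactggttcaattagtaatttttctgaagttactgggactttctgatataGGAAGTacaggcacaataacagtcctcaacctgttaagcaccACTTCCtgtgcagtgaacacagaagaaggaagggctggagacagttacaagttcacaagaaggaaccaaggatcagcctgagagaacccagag
Ms4a6c: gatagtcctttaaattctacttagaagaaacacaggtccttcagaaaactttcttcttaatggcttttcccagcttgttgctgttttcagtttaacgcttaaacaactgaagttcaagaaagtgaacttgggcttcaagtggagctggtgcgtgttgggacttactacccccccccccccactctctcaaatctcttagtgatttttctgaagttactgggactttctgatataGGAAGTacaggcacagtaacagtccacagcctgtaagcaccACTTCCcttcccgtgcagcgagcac

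Both windows held GGAAGT once on each strand. The sense match began at position -85 in Ms4a6b and at position -16 in Ms4a6c, counted from each start site. The letters on either side of it are the same in both windows, which are shifted against each other. Its position therefore depends on the annotated start sites. No other motif of the 5 was found in these windows. The probes of such close copies could capture RNA of each other, which was not tested.

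The 9 members other than Ms4a3 also varied within groups. On shHLX 1, 1 of the 9 lay above its own group mean, and the mean deviation was -0.09. On shHLX 2, 8 of the 9 lay above, with a mean deviation of 0.08, and on shHLX 3, 5 of the 9 (0.01). Among the controls, 1 of 9 lay above on shControl 1 (mean deviation -0.07), 5 of 9 on shControl 2 (0) and 6 of 9 on shControl 3 (0.07). The mean deviation of the 4985 genes under the 25th percentile of signal lay between -0.04 and 0.04 on the 6 arrays, and was 0 on shHLX 1 and shControl 3. On shHLX 1, shHLX 2, shControl 1 and shControl 3, the mean deviations of the 9 members were larger in size. They exceed the group differences of Ms4a1, Ms4a4c, Ms4a4d, Ms4a6b and Ms4a7. The SD between replicates of the median gene was 0.0728. That SD is for 1 gene, and a mean of 9 genes varies less if they vary independently. Whether the 9 shifted together on an array was not tested.

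**Figure D3:**
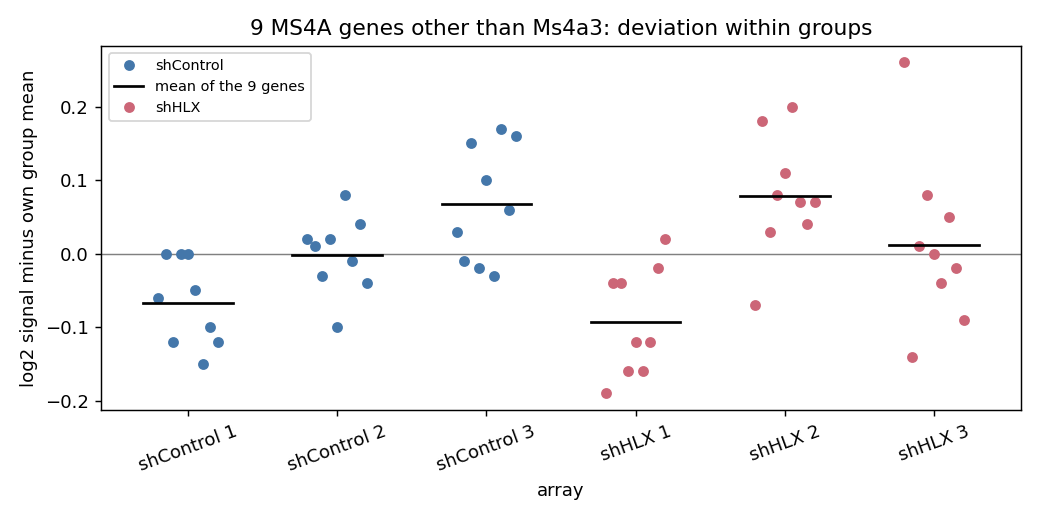
Log2 signal minus the gene's own group mean (vertical axis) for the 9 MS4A genes other than Ms4a3 on each array (horizontal axis); each point is 1 gene and each bar the mean of the 9. The mean is lowest on shHLX 1 (-0.09) and highest on shHLX 2 (0.08).

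Relatives outside the 10 showed no called difference. Of 9 further Ms4a genes and of Tmem176a and Tmem176b, which encode related proteins, 0 of 11 passed limma, against 6.18% of all genes. At that share, 0 of 11 says little. Of these relatives, 0 had an unadjusted p under 0.05, and 0 passed without variance moderation. Their differences ran from -0.12 (Tmem176a, SE 0.06) to 0.09 (Ms4a8a, SE 0.04), with a median of -0.02. Of these 11, 6 had a mean signal above the 25th percentile of all genes, so they include probe sets less dim than those of the 9 members. Only Ms4a8a (7.38), Ms4a10 (7.11) and Ms4a15 (7.61) exceeded the olfactory mark, which limits this count too.

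Genes of the cells in which Ms4a3 is found moved in both directions. Of 22 genes of granulocyte and monocyte progenitors and of primary granules, 5 rose and 4 fell, and 13 did not pass. Over all genes, 3.75% rose and 2.43% fell. The number that fell was 7 with an intensity trend and 2 without variance moderation, and the number that rose was 3 without shControl 1 and shHLX 3. Igsf6, an immunoglobulin superfamily gene that rose 1.15-fold, lost its call whichever array was left out (adjusted p 0.0541 to 0.131). The surface receptor gene Clec12a rose 1.69-fold (limma adjusted p = 2.94e-04) and Mgst1, a glutathione transferase gene, rose 1.53-fold (limma adjusted p = 0.00136). Cebpe, a factor of granule formation, fell by 0.73 on the log2 scale (limma adjusted p = 6.53e-04), and Mpo, the myeloperoxidase gene, fell by 1.46 (limma adjusted p = 0.00151; 0.0558 without variance moderation). Elane, the neutrophil elastase gene, was at 14.00 ± 0.030 (SD, n = 3) and 13.95 ± 0.015 (SD, n = 3). The list median was -0.01, the mean level was 10.71 to 10.73 on the shControl arrays and 10.65 on all 3 shHLX arrays, and 21 of the 22 genes exceeded the olfactory mark. The part of a change in cell makeup in the fall of Ms4a3 was not tested.

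Among 13 genes of beta common receptor signalling, 2 rose and 2 fell, with a median of 0.02. Over all genes, 6.18% passed in either direction. The shared receptor gene Csf2rb itself differed by -0.03 (95% confidence interval of the fold 0.911 to 1.06). Csf2ra, the alpha chain of the GM-CSF receptor, fell by 0.42 (limma adjusted p = 6.54e-04), and Ptpn6, a phosphatase gene, fell by 0.24 (limma adjusted p = 0.0109). Pim1 rose 1.39-fold (limma adjusted p = 8.76e-04) and Socs2 rose 1.28-fold (limma adjusted p = 0.00579). Both are known as targets of STAT5, whose activity was not tested. Cish of the same list differed by 0.06 (SE 0.04) at a mean signal of 8.62 and did not pass. Nor did Jak2 (-0.17, SE 0.06), Stat5a (-0.10, SE 0.04) or Stat5b (0.02, SE 0.05). Ptpn6 was lost without shControl 3 (adjusted p = 0.065), and without shControl 1 and shHLX 3 together (adjusted p = 0.0771).

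Of 12 genes around CDK2 and the phosphatase that binds HTm4, 1 passed. Cdkn3, which encodes that phosphatase, differed by 0.08 (SE 0.05), and Cdk2 by -0.15 (SE 0.04, limma adjusted p = 0.0846). Rb1, the retinoblastoma gene, rose 1.16-fold (limma adjusted p = 0.0497), but each of the 6 fits on 5 arrays ended that call (adjusted p 0.0504 to 0.153). The list median was 0.03. Over all 9 lists, 23 of 133 distinct measured genes passed (17.3%), against 6.18% of all genes. That base includes many dim genes, which seldom pass: 6 of 1027 olfactory receptor genes did (0.584%). When only the 12690 genes above the olfactory mark were tested, 1762 passed. The list share was not compared at like signal. The lists were drawn up with earlier results of these arrays known, so this share is no independent result.

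**Figure D4:**
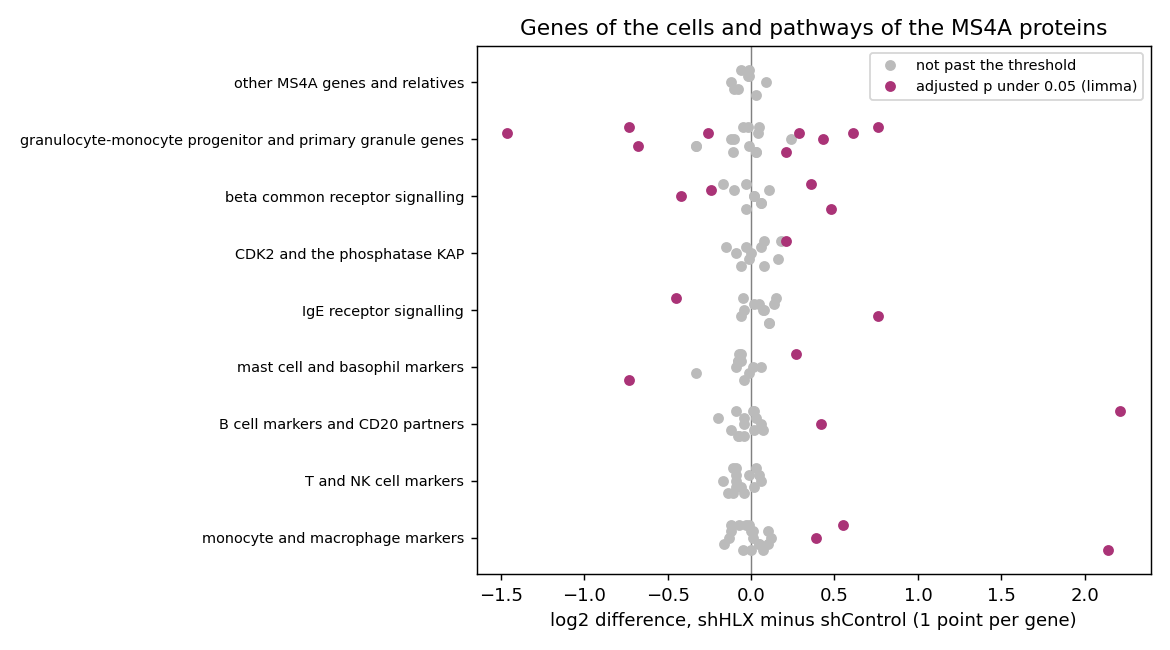
Log2 difference, shHLX minus shControl (horizontal axis), of the measured genes of 9 lists (vertical axis) on relatives, partners and cell types of the MS4A proteins; each point is 1 gene, purple where limma gave an adjusted p under 0.05. No relative of the family and no T or NK cell marker passed, and Igll1 (2.21) and Cd33 (2.14) lie farthest to the right.

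Among genes other than predicted models (Gm and Rik symbols), the profile of Ms4a3 had no close match. Likeness was measured as the Euclidean distance between log2 values, each minus the gene's own shControl mean, over the 6 arrays. With predicted models passed over, the nearest genes were Cdh5, the endothelial cadherin gene (distance 1.36), and Tspan12, a tetraspanin gene (2.25). Next came Zfp462, a zinc finger gene (2.68), Fzd3, a Wnt receptor gene (3.02), and Ifitm1, an interferon-induced gene (3.39). Cdh5 gave 9.68, 9.54 and 9.56 against 6.80, 6.91 and 7.02 on the arrays labelled shHLX, a difference of -2.68. Within the shHLX group, Ms4a3 was highest on shHLX 1 and Cdh5 was lowest there. As the distance rests mainly on the size of the fall, it ranks large falls and is a description only.

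**Figure D5:**
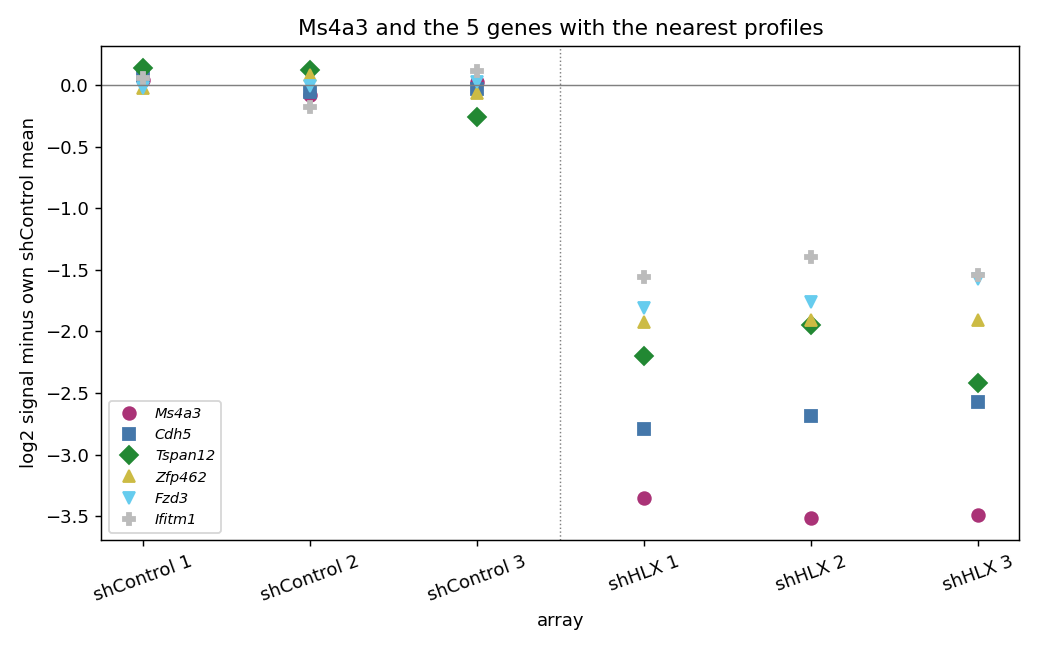
Log2 signal minus the gene's own shControl mean (vertical axis) on the 6 arrays (horizontal axis) for Ms4a3 and the 5 genes at the smallest distance, predicted models passed over. Each point is 1 gene on 1 array. Ms4a3 is lowest on each shHLX array, Cdh5 follows, and the other 4 genes stay above both.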

How the data were processed

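RNA of 6 samples was measured on Affymetrix arrays. The deposited values are log2 signals, 1 column per array. The authors used RMA and Affymetrix Power Tools, per the submitters' processing notes; neither the genome build nor the definition of the probe sets is stated in the labels. Of 35556 probe sets, 21789 had 1 symbol in the platform annotation, 1621 several and 12146 none listed; only the first were used. Where probe sets shared a gene (999 genes), the one with the highest mean was used, which left 19938 genes, unfiltered. The test was that of limma 3.58.1 (R 4.3.3; lmFit and eBayes, two-sided, without covariates), with Benjamini-Hochberg adjustment over all genes and a threshold of 0.05. The code was tested on simulated data. Depth does not apply to arrays, and their number limits the precision.

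The members, the 9 gene lists and the tests were chosen with earlier results of these data known. Named were every member, Hlx, up to 4 called genes of each list with the smallest p, called relatives and neighbours, and the 5 profiles nearest to Ms4a3. Predicted models (Gm and Rik symbols) were passed over for those profiles. Other genes were named after their values were seen. Of the probe sets used, 21698 matched the RefSeq table (GRCm38.p6) by Entrez identifier. Promoters are from RefSeq (GRCm38.p6); windows were aligned with Biopython 1.88 (match 1, mismatch -1, gap opening -3, extension -0.5). Ms4a1 and Ms4a6d had no window in that table. Alternatives are given in the closing section.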

Additional observations from a re-analysis of the deposited data

How the results depend on the processing

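The sign of Ms4a3, Ms4a2, Ms4a6c, Ms4a6d and Ms4a4b held in every alternative that kept them. Of 163 alternative values of members, 10 changed sign, all of Ms4a1, Ms4a4c, Ms4a4d, Ms4a6b or Ms4a7. The gene filters, the variance settings other than array weights, the choice among probe sets and the replicate block cannot change a member's difference of means. Those alternatives therefore say nothing of its stability. The count of members past the threshold was 2 after a second quantile normalization, after centring, with an intensity trend and with the replicate block. It was 1 to 2 when 1 array was left out. The 3 filters on dim signal, which use the mean over all 6 arrays, kept Ms4a3 alone. Ms4a3 passed them only through its shControl signal, as its shHLX mean of 6.12 lay under each mark, so this adds no support. The count over all genes was 2064 above the median of signal, 2261 with an intensity trend, 800 with the replicate block, 698 to 901 when 1 array was left out and 741 without shControl 1 and shHLX 3 together, an alternative chosen after seeing the data. The cause was not tested. Deviations of same-numbered arrays from their group means correlated at -0.17, 0.13 and -0.15. With 3 arrays per group this cannot show whether they were handled together, which the labels do not say. Counts over the gene lists together (23) stayed within 1.5 times, and the neighbours stayed at 0 called, in all alternatives. Single lists moved more: for the progenitor and granule genes, 3 to 6 rose (5 in the report) and 2 to 7 fell (4 in the report). Of the 23 called genes of the lists and Cdh5, 24 in all, 17 kept their call whichever array was left out. Signal over background is unknown for the 9 dim members.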
